A study of Mus musculus with 12 samples.

Results

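In pancreatic islets, 9 ion channel genes were examined through their mRNA: Cacna1a, Cacna1c, Cacna1d, Cacna1h, Scn9a, Trpm4, Trpm5, Kcnma1 and Kcnk16. They were chosen by name as voltage-gated and Trpm channels of the beta cell, with earlier results of these data known, and all 9 were found among the 38561 Ensembl genes of the count table. The 12 libraries come from islets of male mice aged 11 weeks, with 3 mice in each of 4 groups. NOD_insHEL mice are NOD/LtJ;BR-H2k.129S7(B6)-Ragtm1Mom animals with the transgene B6-Tg(ILK3mHEL)3Ccg, called insHEL, a hen egg lysozyme gene driven by an insulin promoter and so active in beta cells, and NOD mice are of the same background without it. B10_insHEL mice are C57BL/10SnSg;BR-H2k.129S7(B6)-Ragtm1Mom animals with the same transgene, and B10 mice lack it. All 4 groups therefore share the Rag-/- genotype, which leaves no mature B or T cells, the MHC k haplotype and a normal blood glucose.

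A rise in glucose closes the KATP channels of the beta cell, and the membrane depolarises. Voltage-gated sodium and calcium channels then open, calcium enters in action potentials, and insulin granules fuse with the membrane. Calcium-activated Trpm channels add depolarising current, whereas voltage-gated, calcium-activated and tandem pore domain potassium channels carry the outward current that limits or ends the spike. The mRNA of these channels was measured in whole islets, which also hold alpha, delta and PP cells, so that fewer cells of a type and less RNA per cell cannot be told apart.

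Library totals ranged from 2212062 counts in NOD_insHEL replicate 3 to 21138456 in B10 replicate 2, and 3 counts correspond to 1.41 CPM in the shallowest and 0.135 CPM in the deepest. CPM are read counts relative to the library total, scaled between libraries by the trimmed mean of M-values (TMM). The islet label was borne out by its defining genes, with 15.8 to 25.6% of all counts on Ins1 and Ins2 and with at least 5432 CPM of Gcg, 1260.1 of Sst and 1037 of Ppy in each library. Insulin took 22.4 to 25.6% in NOD_insHEL, 23.3 to 24.3% in NOD, 16.3 to 21.6% in B10_insHEL and 15.8 to 17.6% in B10. The islet number of a library was 77 to 114 in NOD_insHEL, 53 to 137 in NOD, 44 to 116 in B10_insHEL and 20 to 74 in B10. The lowest, 20, was that of B10 replicate 3. Digestive enzyme and acinar regulator genes of the exocrine pancreas set libraries apart: the 19 acinar markers summed to 143 to 187 CPM in NOD_insHEL, 194 to 318 in NOD, 182 to 2397 in B10_insHEL and 3398 to 4285 in B10, where replicate 2 held the highest value of B10_insHEL. Amy2a1 and Ptf1a had 0 counts in all NOD and NOD_insHEL libraries, and Rbpjl had 0 in all of NOD_insHEL. The serial numbers given to the samples run from 1 to 29 in 9 libraries and are in a separate, higher range in all 3 B10 libraries. What that range marks is not stated, and it cannot be told apart from strain or transgene wherever B10 is compared, whereas NOD_insHEL and B10_insHEL share the range 1 to 29.

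All 9 genes passed the filter on low counts. Averaged over the transgene, 5 of the 9 (Cacna1a, Cacna1c, Cacna1h, Scn9a and Trpm5) were higher in NOD background islets, 2 (Kcnma1 and Kcnk16) were lower and 2 (Cacna1d and Trpm4) did not pass. The test was edgeR's quasi-likelihood F-test with Benjamini-Hochberg adjustment over 15352 genes and a threshold of 0.05, and this holds for every adjusted p given here unless DESeq2 is named. Of all genes tested 33.3% passed, 15.7% as higher and 17.6% as lower. The 5 genes Cacna1a, Scn9a, Trpm5, Kcnma1 and Kcnk16 had no overlap between the 6 NOD background and the 6 B10 background libraries, a pattern found in 11.3% of tested genes. The median log2 difference of the 9 was 0.35, beside 0.01 over all tested genes. In NOD_insHEL against B10_insHEL 7 of the 9 passed (12.1% of tested genes), the same 5 higher (5.55%) and the same 2 lower (6.5%), and 7 had no overlap between the 3 and 3 libraries (27% of tested genes). In NOD against B10 6 of the 9 passed (28.4%), with Cacna1a, Scn9a, Trpm4 and Trpm5 higher (13.5%) and Kcnma1 and Kcnk16 lower (14.9%), and 6 had no overlap (47.5%).

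**Figure D1:**
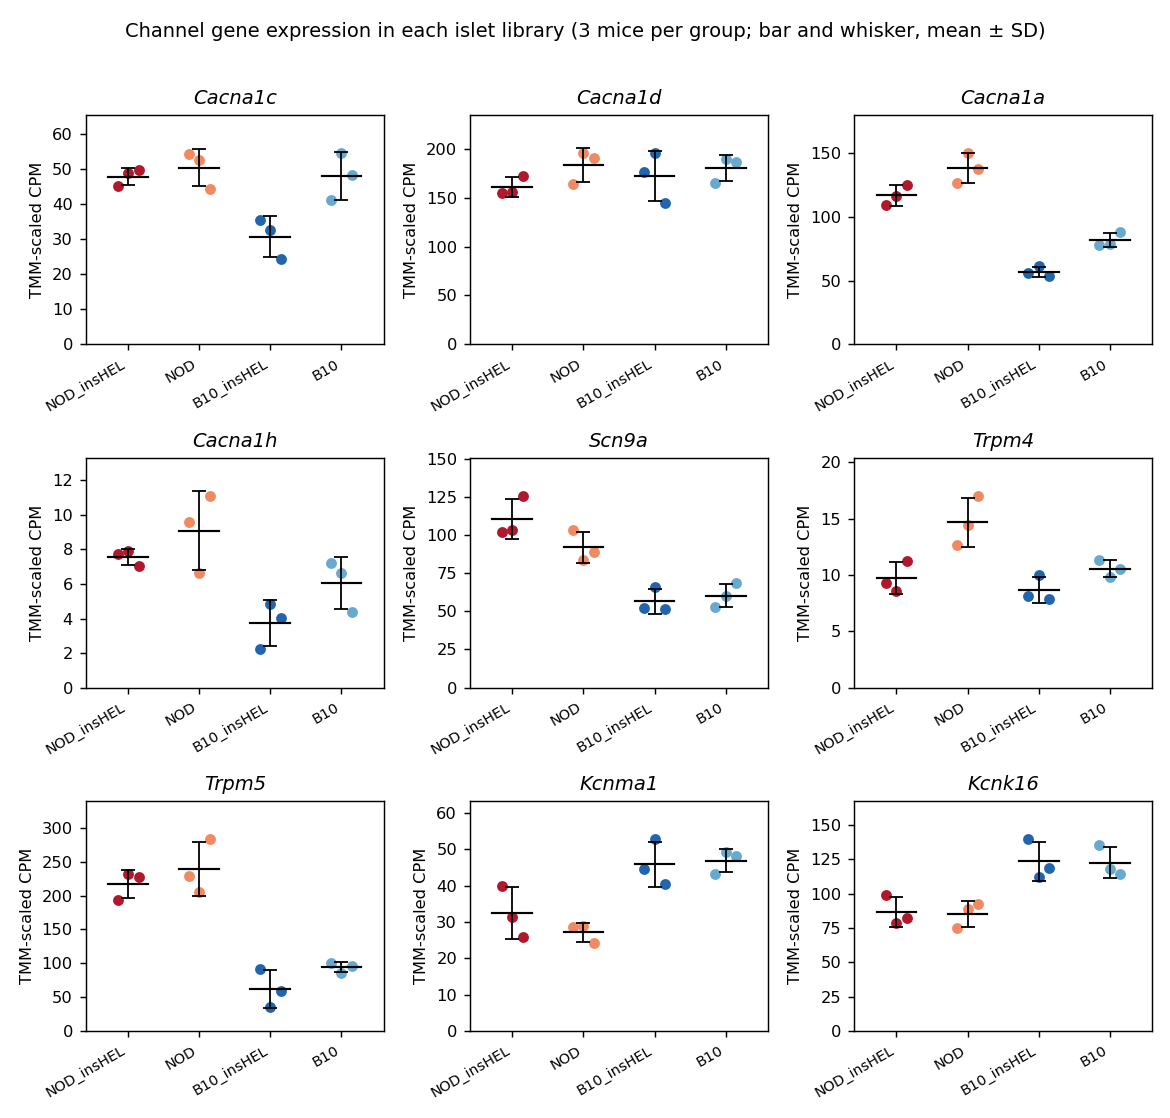
TMM-scaled CPM (y axis, from 0) of the 9 channel genes in each of the 12 islet libraries (points), by group (x axis), with mean and SD of 3 mice (bar and whisker). The NOD_insHEL and NOD libraries lie above all B10_insHEL and B10 libraries for Cacna1a, Scn9a and Trpm5 and below them for Kcnma1 and Kcnk16.

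**Figure D2:**
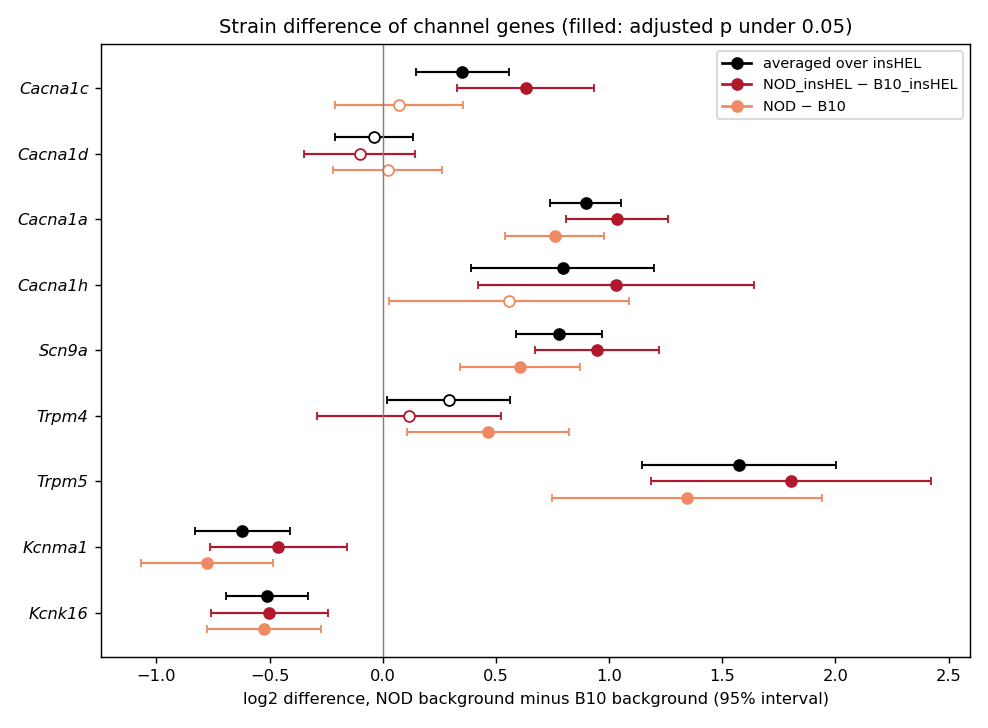
Log2 difference between NOD and B10 backgrounds (x axis) for each channel gene (y axis), averaged over insHEL (black), with insHEL (red) and without it (orange), with 95% intervals. Filled points have an adjusted p under 0.05, which 7, 7 and 6 of the 9 genes reach in the 3 comparisons.

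Trpm5, a cation channel that opens with cytosolic calcium and passes monovalent ions, had the largest strain difference of the 9. Trpm5 (ENSMUSG00000009246, chromosome 7, 143069153 to 143094642) had 193, 231 and 227 CPM in NOD_insHEL and 228, 205 and 283 CPM in NOD. The levels were 91.9, 35.9 and 58.7 CPM in B10_insHEL and 100.2, 86.0 and 95.7 CPM in B10. Every library of NOD background was above every library of B10 background. The averaged log2 difference was 1.57 (SE 0.19, 95% interval 1.15 to 2.00, adjusted p = 1.42e-04), a 2.98-fold higher level. It was 1.80 in NOD_insHEL against B10_insHEL (SE 0.28, adjusted p = 0.00176) and 1.34 in NOD against B10 (SE 0.27, adjusted p = 0.00443). Among the B10_insHEL libraries Trpm5 was lowest in replicate 2, the one of them with the most acinar RNA (2397 CPM of acinar markers). Every B10 library held more acinar RNA (3398 to 4285 CPM) and had 86.0 to 100.2 CPM of Trpm5. When the mean log2 level of the acinar markers (the acinar score) was added to the model, NOD against B10 no longer passed (0.54, adjusted p = 0.223), while NOD_insHEL against B10_insHEL (1.61, adjusted p = 1.01e-05) and the averaged difference (1.08, adjusted p = 4.41e-04) did. The score did not overlap between NOD (2.74 to 3.32) and B10 (6.11 to 6.43), nor between B10_insHEL (1.57 to 5.79) and B10. In fits with the score, acinar RNA therefore cannot be cleanly told apart from strain in NOD against B10, or from insHEL in B10. Trpm5 shares 220 exon bases with Tssc4 on the opposite strand, and the strand setting of the counting is not given in the sources used here. Tssc4 had 63.9 ± 7.30 CPM in NOD_insHEL, 66.3 ± 10.4 in NOD, 93.4 ± 20.5 in B10_insHEL and 68.2 ± 1.38 in B10 (SD, n = 3 each). Its averaged log2 difference was -0.29 (SE 0.10, adjusted p = 0.0333), opposite in sign to that of Trpm5.

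Trpm4, the closest relative of Trpm5 and likewise opened by calcium, was low in all libraries. Trpm4 (ENSMUSG00000038260, chromosome 7, 45302632 to 45333780) had 9.30, 8.57 and 11.3 CPM in NOD_insHEL, 12.6, 14.4 and 17.0 in NOD, 8.17, 10.0 and 7.84 in B10_insHEL and 11.4, 9.78 and 10.6 in B10. The 3 NOD libraries were the highest, while NOD_insHEL overlapped with both B10 background groups. The averaged difference did not pass (0.29, SE 0.13, adjusted p = 0.0923, 95% interval 0.02 to 0.56), nor did NOD_insHEL against B10_insHEL (0.12, SE 0.20, adjusted p = 0.766). NOD against B10 passed narrowly (0.47, SE 0.17, adjusted p = 0.0480). That call was lost without NOD_insHEL replicate 1 or 2, NOD replicate 2 or 3 or any B10 library, with log2 differences of 0.36 to 0.54 over all libraries left out in turn and an adjusted p of up to 0.204. It was also lost with DESeq2 (adjusted p = 0.0510) and with other alternatives named in the section on processing.

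Both Trpm genes were compared as a ratio within each library. Per kilobase of annotated exon, the scale on which genes of different length were compared, the Trpm5 level was 34.1 to 45.6 times that of Trpm4 in NOD_insHEL, 24.2 to 30.6 in NOD, 6.08 to 19.0 in B10_insHEL and 14.9 to 15.3 in B10. The ratio was higher in all 6 NOD background libraries than in all 6 B10 background libraries.

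Cacna1a, the pore-forming subunit of P/Q-type calcium channels, which trigger transmitter release at many synapses, had the smallest p of the 9 for strain. Cacna1a (ENSMUSG00000034656, chromosome 8, 84388440 to 84640246) had 109, 116 and 125 CPM in NOD_insHEL and 127, 150.3 and 137 CPM in NOD, against 55.9, 61.1 and 53.4 CPM in B10_insHEL and 78.1, 78.9 and 88.2 CPM in B10. All 4 groups were separate, with NOD highest and B10_insHEL lowest. The averaged log2 difference was 0.90 (SE 0.08, adjusted p = 1.26e-08). It was 1.03 with insHEL (SE 0.11, adjusted p = 9.76e-07) and 0.76 without it (SE 0.10, adjusted p = 2.18e-05).

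The L-type channels, which carry much of the calcium current of mouse beta cells, differed less. Cacna1d (ENSMUSG00000015968, chromosome 14, 30039939 to 30491455) had 155, 156 and 172 CPM in NOD_insHEL, 164, 196 and 190.4 in NOD, 176, 195 and 145 in B10_insHEL and 165, 189.9 and 187 in B10. The 4 groups overlapped, and the averaged log2 difference was -0.04 with a 95% interval of -0.21 to 0.13 (adjusted p = 0.743). Cacna1c (ENSMUSG00000051331, chromosome 6, 118587240 to 119196418), which encodes the other main L-type pore of the beta cell, had 45.1, 48.8 and 49.8 CPM in NOD_insHEL and 54.3, 52.5 and 44.4 CPM in NOD. In B10_insHEL it had 35.5, 32.5 and 24.3 CPM and in B10 41.1, 54.7 and 48.5 CPM, so that B10_insHEL lay below the other 3 groups, which overlapped. Its averaged difference passed (0.35, SE 0.10, adjusted p = 0.00961), and so did NOD_insHEL against B10_insHEL (0.63, SE 0.14, adjusted p = 0.00558), whereas NOD against B10 did not (0.07, SE 0.14, adjusted p = 0.729, 95% interval -0.21 to 0.35). The strain differences with and without insHEL were not shown to differ from each other (interaction 0.56, SE 0.20, adjusted p = 0.270). Once the acinar score was in the model the averaged call was lost (0.42, adjusted p = 0.0618).

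Cacna1h, a T-type channel that opens at more negative voltages than the L-type and P/Q-type channels, was the least abundant of the 9 per kilobase in each group. Cacna1h (ENSMUSG00000024112, chromosome 17, 25374285 to 25433783) had 7.76, 7.91 and 7.04 CPM in NOD_insHEL, 9.58, 6.61 and 11.1 in NOD, 2.26, 4.87 and 4.02 in B10_insHEL and 7.20, 6.62 and 4.36 in B10. These levels rest on as few as 15 reads in NOD_insHEL replicate 3 (exact 95% Poisson interval 8.40 to 24.7 counts, counting error only) and 21 in B10_insHEL replicate 1. The groups with insHEL did not overlap, and those without it did. The averaged log2 difference was 0.79 (SE 0.19, adjusted p = 0.00346), that with insHEL 1.03 (SE 0.29, adjusted p = 0.0237), and NOD against B10 did not pass (0.56, SE 0.25, adjusted p = 0.106). With all libraries thinned to the depth of the shallowest, the averaged call was lost (0.66, adjusted p = 0.0598). The call with insHEL was lost without NOD_insHEL replicate 1 (1.02, adjusted p = 0.0823), NOD_insHEL replicate 2 (1.00, adjusted p = 0.0759) or B10_insHEL replicate 1 (0.78, adjusted p = 0.0819), with only the groups compared in the fit (1.04, adjusted p = 0.0503) and after thinning (0.72, adjusted p = 0.280).

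The levels of the calcium channel pores were also set against each other. Per kilobase, the Cacna1a level was 0.781 to 0.825 of that of Cacna1d in NOD_insHEL, 0.798 to 0.856 in NOD, 0.346 to 0.408 in B10_insHEL and 0.459 to 0.523 in B10. All 6 NOD background libraries were higher than all 6 of B10 background. Cacna1d exceeded Cacna1c 5.35 to 5.81 times in NOD_insHEL, 5.07 to 7.21 times in NOD, 8.33 to 10.1 times in B10_insHEL and 5.83 to 6.74 times in B10. For that pair all 3 B10_insHEL libraries were above the other 9, and NOD overlapped with both NOD_insHEL and B10, which lay next to each other without overlap.

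**Figure D3:**
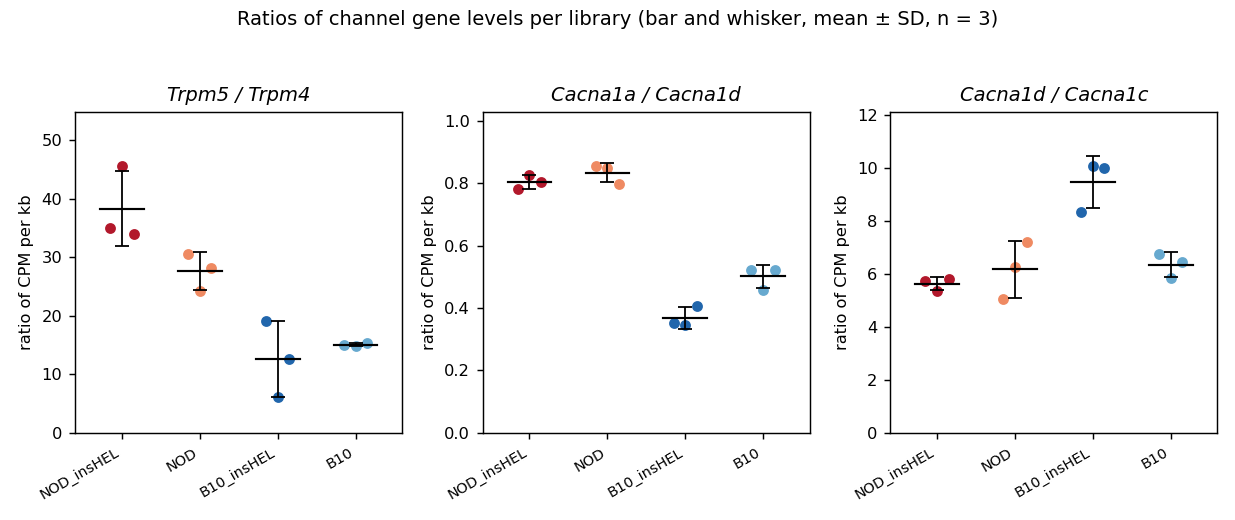
Ratio of length-scaled levels (y axes, CPM per kb over CPM per kb, from 0) of Trpm5 to Trpm4, Cacna1a to Cacna1d and Cacna1d to Cacna1c in each library (points), by group (x axes), with mean and SD of 3 mice. Both NOD groups are above both B10 groups in the first and second panels, and B10_insHEL is above the other groups in the last.

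Scn9a, which encodes a voltage-gated sodium channel pore, was higher in NOD with and without the transgene. Scn9a (ENSMUSG00000075316, chromosome 2, 66480080 to 66634962) had 101.99, 103 and 125 CPM in NOD_insHEL and 103, 83.7 and 88.6 CPM in NOD, against 52.1, 66.0 and 51.7 CPM in B10_insHEL and 53.0, 59.7 and 68.2 CPM in B10. Every NOD background library was above every B10 background library. The averaged log2 difference was 0.78 (SE 0.09, adjusted p = 1.50e-06), 0.95 in NOD_insHEL against B10_insHEL (SE 0.13, adjusted p = 3.46e-05) and 0.61 in NOD against B10 (SE 0.13, adjusted p = 0.00142).

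Both potassium channel genes of the 9 were lower in NOD. Kcnk16 (ENSMUSG00000023387, chromosome 14, 20261376 to 20269199) encodes a tandem pore domain potassium channel of beta cells that conducts near the resting and plateau potentials. It had 99.1, 78.8 and 82.6 CPM in NOD_insHEL and 74.9, 88.6 and 92.3 CPM in NOD, against 139.6, 112 and 119 CPM in B10_insHEL and 135, 118 and 114 CPM in B10. The highest NOD background library was below the lowest of B10 background. The averaged log2 difference was -0.51 (SE 0.09, adjusted p = 1.19e-04), -0.50 with insHEL (SE 0.12, adjusted p = 0.00953) and -0.52 without it (SE 0.12, adjusted p = 0.00299). The call with insHEL was lost without NOD_insHEL replicate 2 (-0.43, adjusted p = 0.0646).

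Kcnma1 (ENSMUSG00000063142, chromosome 14, 23289431 to 24014491) encodes the pore of the BK channel, which opens with voltage and calcium together and repolarises the spike. It had 40.0, 31.3 and 25.8 CPM in NOD_insHEL and 28.6, 28.9 and 24.2 CPM in NOD, against 44.5, 52.7 and 40.4 CPM in B10_insHEL and 43.2, 49.2 and 48.2 CPM in B10. The NOD and B10 backgrounds did not overlap, although NOD_insHEL replicate 1 came close to the lowest B10_insHEL library. The averaged log2 difference was -0.62 (SE 0.10, adjusted p = 8.02e-05) and -0.78 in NOD against B10 (SE 0.14, adjusted p = 3.58e-04). NOD_insHEL against B10_insHEL passed narrowly (-0.46, SE 0.15, adjusted p = 0.0413). That call was lost without NOD_insHEL replicate 2 or 3, B10_insHEL replicate 1 or 2 or any B10 library, with log2 differences of -0.66 to -0.34 over all libraries left out in turn and an adjusted p of up to 0.169. It was also lost with the stricter low-count filter (-0.44, adjusted p = 0.0522), with only the groups compared in the fit (-0.46, adjusted p = 0.112) and without both B10_insHEL replicate 2 and NOD_insHEL replicate 3 (-0.25, adjusted p = 0.367). Once the acinar score was in the model it was -0.36, adjusted p = 0.114 with insHEL and -0.51, adjusted p = 0.125 without it.

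RefSeq start regions are printed for the 4 called genes that had exactly 1 RefSeq promoter, Trpm5 and Scn9a, higher in NOD, and Kcnk16 and Kcnma1, lower in NOD. Whether their letters bear on the direction was not tested. They are RefSeq promoters of the GRCm38.p6 build from 250 bases before to 50 after the start that RefSeq gives the gene, each on the minus strand and written 5′ to 3′, with the E box letters CANNTG (bound by basic helix-loop-helix factors) in capitals. That start is the GENCODE gene start used above for Trpm5 and Scn9a, lies 70 bases upstream of it for Kcnk16 and 10286 bases inside the gene for Kcnma1.
Trpm5 (chr7:143094593-143094892): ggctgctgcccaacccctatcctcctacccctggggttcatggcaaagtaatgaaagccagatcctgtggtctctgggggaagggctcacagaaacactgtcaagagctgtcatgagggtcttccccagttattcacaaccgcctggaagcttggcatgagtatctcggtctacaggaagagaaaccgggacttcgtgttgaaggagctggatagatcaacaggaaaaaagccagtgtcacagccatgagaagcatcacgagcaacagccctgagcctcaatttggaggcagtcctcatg
Scn9a (chr2:66634913-66635212): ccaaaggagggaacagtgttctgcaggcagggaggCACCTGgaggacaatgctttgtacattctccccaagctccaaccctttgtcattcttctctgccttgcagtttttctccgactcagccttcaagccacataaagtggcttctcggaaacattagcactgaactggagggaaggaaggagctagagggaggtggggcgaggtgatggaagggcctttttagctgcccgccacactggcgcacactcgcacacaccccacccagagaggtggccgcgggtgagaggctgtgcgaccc
Kcnk16 (chr14:20269220-20269519): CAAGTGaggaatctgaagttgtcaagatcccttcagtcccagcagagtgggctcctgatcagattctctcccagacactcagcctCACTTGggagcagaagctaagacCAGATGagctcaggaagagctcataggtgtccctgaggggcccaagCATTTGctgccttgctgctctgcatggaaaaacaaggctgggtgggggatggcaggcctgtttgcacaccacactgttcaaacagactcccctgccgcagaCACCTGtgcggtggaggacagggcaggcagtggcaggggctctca
Kcnma1 (chr14:24004156-24004455): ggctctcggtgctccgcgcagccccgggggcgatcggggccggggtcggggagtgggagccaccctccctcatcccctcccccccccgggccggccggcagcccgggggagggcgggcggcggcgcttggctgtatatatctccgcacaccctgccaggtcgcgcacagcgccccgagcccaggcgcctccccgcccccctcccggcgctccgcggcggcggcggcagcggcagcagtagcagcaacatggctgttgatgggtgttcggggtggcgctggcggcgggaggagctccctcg
CANNTG reads the same on both strands and occurred 5 times in the Kcnk16 window, 1 time in that of Scn9a and 0 times in those of Trpm5 and Kcnma1, while 72.3% of the 32851 promoters of this length held it. The Kcnma1 window was rich in G and C (78%, with 53% for Trpm5, 57.3% for Scn9a and 57% for Kcnk16) and held GGGCGG or its reverse complement 3 times, letters found in 35.7% of promoters and in none of the other windows printed. TATAAA on either strand was in none of these windows (13.6% of promoters), and TAAT on either strand occurred 1 time each for Trpm5 and Scn9a and 0 times for Kcnk16 and Kcnma1 (58.0%).

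In order of level the 9 genes spanned a wide range. Exon length is that of all annotated exons of a gene merged (2377 bases for Kcnk16, 16976 for Kcnma1 and 21191 for Cacna1c). The transcripts used in islets were not measured, so order and shares between genes depend on the annotation. Without length scaling Kcnk16 (mean 86.8 CPM) was below Trpm5 (217) and Cacna1d (161) in NOD_insHEL. Per kilobase of exon, Kcnk16 had 36.5 ± 4.55 CPM per kb in NOD_insHEL, 35.9 ± 3.86 in NOD, 52.0 ± 6.02 in B10_insHEL and 51.5 ± 4.74 in B10 (SD, n = 3 each), the highest mean in each group but NOD. In NOD Trpm5 was first (37.3 ± 6.22), but Trpm5 and Kcnk16 overlapped there and in NOD_insHEL (33.9 ± 3.30 for Trpm5). In B10_insHEL (9.72 ± 4.40) and B10 (14.7 ± 1.14) Trpm5 overlapped with Cacna1d instead. Cacna1d had 12.7 ± 0.789 in NOD_insHEL, 14.5 ± 1.35 in NOD, 13.6 ± 2.02 in B10_insHEL and 14.3 ± 1.07 in B10. Cacna1a and Scn9a came next in all groups, with Cacna1a overlapping Cacna1d in NOD and Scn9a in NOD_insHEL and B10_insHEL. Cacna1c and Kcnma1 followed, with Kcnma1 below Cacna1c in the NOD groups and above it in the B10 groups, overlapping it in NOD_insHEL and in B10. Trpm4 and Cacna1h had the lowest means in all 4 groups, although Trpm4 overlapped with Kcnma1 in NOD. Trpm4 and Cacna1h had 0.897 ± 0.129 and 0.776 ± 0.0477 CPM per kb in NOD_insHEL, where they overlapped, and 0.976 ± 0.0727 and 0.621 ± 0.154 in B10. Of the summed length-scaled level of the 9 genes, Trpm5 made up 31.4% in NOD_insHEL, 32.9% in NOD, 10.6% in B10_insHEL and 14.8% in B10. Kcnk16 made up 33.9%, 31.6%, 57.7% and 52.0% in the same groups.

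**Figure D4:**
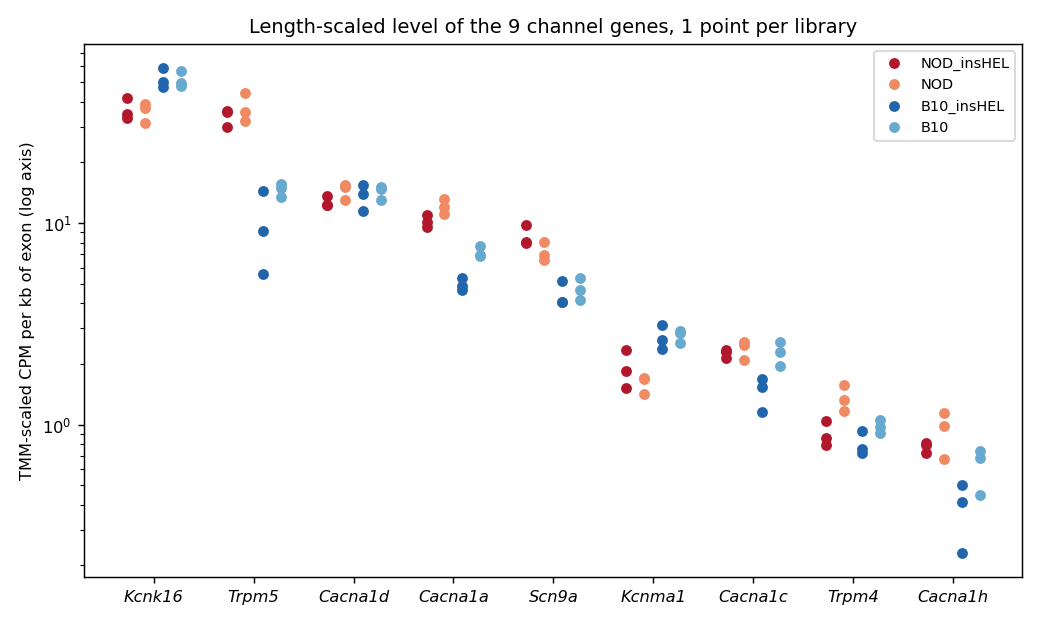
TMM-scaled CPM per kilobase of annotated exon (y axis, log scale) of the 9 channel genes (x axis, ordered by mean level), 1 point per library, coloured by group. Kcnk16 has the highest mean in NOD_insHEL, B10_insHEL and B10 and Trpm5 in NOD, while Trpm4 and Cacna1h have the lowest means of the 9 in each group.

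The transgene was set against its absence within each strain. Of the 9 genes 1 was lower with insHEL in NOD islets, where 7.06% of all tested genes passed, 3.88% as higher and 3.18% as lower. It was Trpm4 (-0.63, SE 0.19, adjusted p = 0.0490), and the call was lost without NOD_insHEL replicate 1 or 2, NOD replicate 2 or 3 or any B10 library, with log2 differences of -0.72 to -0.52 over all libraries left out in turn and an adjusted p of up to 0.210. Cacna1a did not overlap between NOD_insHEL and NOD but did not pass (-0.25, SE 0.11, adjusted p = 0.160), so that 2 of the 9 had no overlap beside 26.6% of tested genes. In B10 islets 2 were lower with insHEL, beside 6.85% of tested genes (4.09% as higher and 2.76% as lower), and the same 2 had no overlap (26.7%). These were Cacna1a (-0.52, SE 0.11, adjusted p = 0.00488) and Cacna1c (-0.64, SE 0.14, adjusted p = 0.00748). The Cacna1c call was lost without B10_insHEL replicate 3 (-0.50, adjusted p = 0.0505), and once the acinar score was in the model neither passed (Cacna1a -0.37, adjusted p = 0.298, Cacna1c -0.55, adjusted p = 0.244). Trpm5 did not pass in B10 (-0.60, SE 0.27, adjusted p = 0.230) but did without B10_insHEL replicate 1 (-0.99, adjusted p = 0.00287), the B10_insHEL library with its highest level, and once the acinar score was in the model (-1.45, adjusted p = 0.0124). Kcnk16 did not pass in either strain, with a 95% interval of the log2 difference of -0.22 to 0.29 in NOD and -0.24 to 0.26 in B10. The transgene effects of both strains were not shown to differ for any of the 9 by edgeR's interaction test (0 passed and 1, Cacna1c, had an unadjusted p under 0.05, with DESeq2 also calling 0), beside 0.0586% of tested genes (0.0456% with a higher and 0.013% with a lower value). The construct itself is not among the genes counted.

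**Figure D5:**
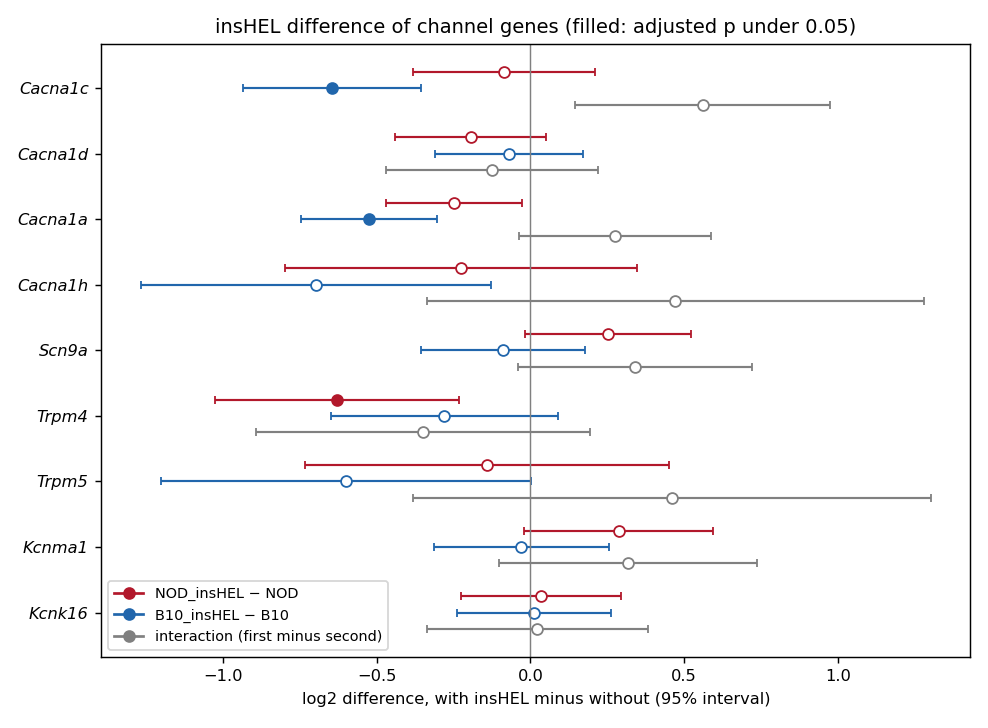
Log2 difference with insHEL minus without it (x axis) for each channel gene (y axis) in NOD (red) and B10 (blue) islets, and the interaction (grey, NOD effect minus B10 effect), with 95% intervals. Filled points have an adjusted p under 0.05: Trpm4 in NOD and Cacna1a and Cacna1c in B10.

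The partners of these channels were followed through lists of 112 other channel genes, of which 80 were tested. Averaged over the transgene 12 were higher and 16 lower in NOD (35% called, median log2 difference -0.06), a share near the 33.3% of all tested genes. In NOD_insHEL against B10_insHEL 8 were higher and 5 lower (16.2%), and in NOD against B10 10 were higher and 13 lower (28.8%). Of 8 auxiliary calcium channel subunits 0 passed by edgeR (median -0.06), among them Cacna2d1 with 227 ± 5.22 CPM in NOD_insHEL, 184 ± 8.64 in NOD, 197 ± 13.5 in B10_insHEL and 209 ± 28.3 in B10 (0.01, SE 0.08, adjusted p = 0.931). Of 5 other calcium channel pores 1 was higher, the T-type gene Cacna1i, at 1.72 ± 0.359 CPM in NOD_insHEL, 1.95 ± 0.474 in NOD, 0.658 ± 0.505 in B10_insHEL and 0.355 ± 0.0487 in B10 (1.95, SE 0.37, adjusted p = 3.72e-04).

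Sodium channel genes went both ways around Scn9a. Scn3a, the other sodium channel pore abundant in mouse islets, was lower, with 43.0 ± 4.89 CPM in NOD_insHEL, 29.2 ± 2.34 in NOD, 77.3 ± 19.1 in B10_insHEL and 42.5 ± 5.24 in B10 (-0.68, SE 0.11, adjusted p = 8.77e-05). With insHEL, Scn3a was higher in NOD (0.59, adjusted p = 0.0340) and in B10 (0.87, adjusted p = 0.00202). Of 6 other sodium channel pores tested, Scn11a was higher (2.47, SE 0.36, adjusted p = 2.16e-05, with 2 to 3 reads a library in B10_insHEL), Scn3a and the leak channel gene Nalcn were lower (-0.35 for Nalcn, adjusted p = 0.00285), and 3 did not pass. Nalcn did not pass in NOD_insHEL against B10_insHEL (Nalcn -0.14, adjusted p = 0.516).

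Other potassium channels were mixed. Of 25 voltage-gated potassium channel genes tested, 7 were higher and 5 lower. Lower genes with a difference of at least 0.5 included Kcnb2 (-0.74, adjusted p = 0.0143), Kcnd3 (-0.93, adjusted p = 0.0451) and Kcnh1 (-0.74, adjusted p = 0.00614). The higher ones included Kcna1 (0.59, adjusted p = 0.0295), Kcna6 (0.91, adjusted p = 0.0139), Kcnd1 (0.56, adjusted p = 0.00541), Kcnh3 (0.99, adjusted p = 0.00254) and Kcnh5 (0.83, adjusted p = 0.0116). Kcnb2, Kcnd3, Kcna6 and Kcnh5 passed neither with insHEL alone nor without it. Kcnh1 (adjusted p = 0.0914) and Kcnd1 (adjusted p = 0.0818) did not pass in NOD_insHEL against B10_insHEL. Kcna1 (adjusted p = 0.587) and Kcnh3 (adjusted p = 0.106) did not pass in NOD against B10. Both KATP subunits were lower, Kcnj11 (-0.34, adjusted p = 0.00863) and Abcc8 (-0.32, adjusted p = 0.00152), and both passed in NOD against B10 but not in NOD_insHEL against B10_insHEL (Kcnj11 -0.22, adjusted p = 0.344 and Abcc8 -0.27, adjusted p = 0.0850). Of the 8 other tandem pore domain genes tested, Kcnk10 (adjusted p = 6.03e-04, 0 to 1 read a library in NOD_insHEL, 0 to 2 in NOD, 15 to 20 in B10_insHEL and 4 to 22 in B10) was lower and 7 did not pass. Of 4 small- and intermediate-conductance calcium-activated potassium channels, Kcnn3 (-1.38, adjusted p = 0.00868) and the intermediate-conductance gene Kcnn4 (-1.28, adjusted p = 0.0114) were lower. Kcnn3 did not pass in NOD_insHEL against B10_insHEL (-1.31, adjusted p = 0.109), with 23.1 ± 13.2 CPM in B10_insHEL. Kcnn4 did not pass in NOD against B10 (-0.40, adjusted p = 0.562). Its level was low, from 0.543 ± 0.528 CPM in NOD_insHEL to 3.08 ± 1.78 in B10_insHEL. Among auxiliary BK subunits Kcnmb2 was lower (-0.38, SE 0.09, adjusted p = 0.00261), with 119 ± 12.3 CPM in NOD_insHEL, 103 ± 9.76 in NOD, 134 ± 12.4 in B10_insHEL and 155 ± 24.6 in B10, and 3 others tested did not pass. Kcnmb2 did not pass in NOD_insHEL against B10_insHEL (Kcnmb2 -0.17, adjusted p = 0.430). Of 15 other Trp genes tested, Trpc7 (3.81, adjusted p = 7.77e-09) and Trpm6 (adjusted p = 6.69e-06) were higher, and the lower ones included Mcoln3 (-0.62, adjusted p = 0.0434) and Mcoln1 (-0.26, adjusted p = 0.0335). Mcoln3 was lower only in NOD against B10 (-1.53, adjusted p = 2.89e-04). In NOD_insHEL against B10_insHEL it had the opposite sign and did not pass (0.28, adjusted p = 0.692). Trpc7 had 11 to 54 reads a library in NOD_insHEL, 22 to 45 in NOD, 1 to 4 in B10_insHEL and 3 to 9 in B10, and Trpm6 had 1 to 23, 12 to 54, 0 to 1 and 8 to 12 in the same groups.

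Markers of other cell types were counted in the averaged comparison unless another is named. Their part in the channel results was not tested, apart from the fits with the acinar score, whose limit is given with Trpm5. Of 17 acinar markers tested 15 were lower in NOD background islets, 12 in NOD against B10 and 0 in NOD_insHEL against B10_insHEL. Of 5 delta cell markers 4 were higher, 1 in NOD against B10 and 2 in NOD_insHEL against B10_insHEL, and their sum was 2696 to 3843 CPM in NOD_insHEL, 1680.4 to 4567 in NOD, 1344 to 2032 in B10_insHEL and 1559.9 to 2174 in B10. Endothelial markers were higher for 7 and lower for 1 of 10 (992 to 1151 CPM in NOD_insHEL, 1277 to 1815 in NOD, 1082 to 1153 in B10_insHEL and 930.2 to 1023 in B10). Smooth muscle, pericyte and stellate markers, cell types in which Cacna1c and Kcnma1 are also known to be expressed, were higher for 5 of 10 tested (516 to 767 CPM in NOD_insHEL, 552 to 765 in NOD, 493 to 624 in B10_insHEL and 440.4 to 483 in B10). In NOD against B10 8 endothelial markers were higher and 0 lower, whereas in NOD_insHEL against B10_insHEL 0 were higher and 2 lower, and for the smooth muscle list 4 and 0 were higher in these comparisons. Schwann and neuronal markers were higher for 5 and lower for 2 of 11 (424 to 539 CPM in NOD_insHEL, 381 to 431 in NOD, 353 to 472 in B10_insHEL and 340.4 to 347 in B10). Of 10 beta cell markers 4 were higher and 3 lower, and of 7 alpha cell markers 1 was lower. The alpha cell markers summed to 21004 to 30385 CPM in NOD_insHEL, 7425 to 22863 in NOD, 23620.3 to 31742 in B10_insHEL and 6034 to 32636 in B10, with Gcg lowest in B10 replicate 3 (5432 CPM) and NOD replicate 2 (6721 CPM). Of 9 macrophage markers 1 was higher, of 7 duct markers 2 were higher and 1 lower, and of 3 PP and epsilon cell markers 1 was lower.

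Genes near the 9 channel genes were counted beside the 33.3% of all tested genes that passed, 15.7% as higher and 17.6% as lower. Of the tested genes that start within 500 kb of Cacna1h, 10 of 32 were higher in NOD and 0 lower. Around Trpm5 2 of 10 were higher and 4 lower, around Cacna1a 6 of 28 higher and 1 lower, and around Trpm4 11 of 49 higher and 4 lower. Around Kcnk16 1 of 20 was higher and 2 lower, around Cacna1d 1 of 10 higher and 2 lower, around Cacna1c 0 of 6 higher and 2 lower, around Scn9a 0 of 3 higher and 1 lower, and around Kcnma1 0 of 4 passed in either direction. The nearest tested neighbours of Trpm5 were Tssc4, described with Trpm5, and the potassium channel gene Kcnq1, which did not pass (0.17, SE 0.24, adjusted p = 0.620). Those of Scn9a were the sodium channel genes Scn1a (0.69, adjusted p = 0.296) and Scn7a (0.32, adjusted p = 0.333), neither of which passed. Nearest to Kcnk16 lay its relative Kcnk5 (-0.64, adjusted p = 0.0857) and Nudt13 (0.15, adjusted p = 0.410), which did not pass either. Genes nearest to the others that passed included Ier2 beside Cacna1a (0.64, adjusted p = 0.0166) and Rpl14-ps1 beside Trpm4 (0.35, adjusted p = 0.00995), both higher in NOD. Ccdc130 beside Cacna1a (0.13, adjusted p = 0.354), Dcp1b (-0.27, adjusted p = 0.0616) and Cacna2d4 (-0.50, adjusted p = 0.343) beside Cacna1c, Dcp1a (0.09, adjusted p = 0.401) and Tkt (-0.06, adjusted p = 0.632) beside Cacna1d did not pass. Neither did Sox8 beside Cacna1h (0.60, adjusted p = 0.310), Ppfia3 beside Trpm4 (0.24, adjusted p = 0.140) and Gm6158 beside Kcnma1 (0.06, adjusted p = 0.794).

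Among 11342 other genes with at least 5 CPM, likeness of pattern was measured as the root mean square difference of centred log2 CPM over the 12 libraries, for the 3 channel genes with the smallest strain p. Among the genes closest to Cacna1a were Stap2 (0.139) and Carmil2 (0.175). Closest to Scn9a were Ift81 (0.150), Rab3gap2 (0.166) and Crot (0.168), and to Kcnma1 Lpin2 (0.0936), Ndst1 (0.121) and Il13ra1 (0.122). All these genes share the difference between strains with the channel gene they were matched to, which follows from how they were picked.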

How the data were processed

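Islets were isolated by collagenase and a density gradient with transcription inhibitors present, picked by eye, and turned into stranded mRNA libraries, per the labels' protocols. The deposited table gives unnormalised counts of reads for each Ensembl gene and each of the 12 libraries; the authors' tools were cutadapt, TopHat2 2.0.8b, HTSeq and DESeq on GRCm38, per the submitters' processing notes. The annotation release, strand setting and counting mode are not given in the sources used here, and reads that NOD alleles lose in mapping to GRCm38 were not measured. Symbols, positions and exon lengths come from GENCODE vM21 on GRCm38 (95.2% of identifiers matched), and promoters from RefSeq, which held 6 of the 9 genes.

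The model was fitted in edgeR 4.0.16 (R 4.3.3) after filterByExpr (15352 genes kept) and TMM scaling, as 1 model of 4 group means over 12 libraries with robust quasi-likelihood F-tests, two-sided, for 6 comparisons. The approach was tested on simulated data. SE is the absolute log2 difference divided by the square root of F, and log2 differences are NOD minus B10 background, or with insHEL minus without it. Alternatives were DESeq2 1.42.0, RLE scaling, no or a stricter low-count filter (minimum count 50), fits of only the groups compared, each library left out, title numbers as a block, islet number or acinar score as a covariate, and thinning. Leaving out B10_insHEL replicate 2 with NOD_insHEL replicate 3, and leaving Ins1 and Ins2 out of the totals, were added after the data were seen. The channel genes and lists were chosen with earlier results of these data known. All 9 genes are named; other channel genes were named if called with an absolute averaged log2 difference of at least 0.5 and at least 1 CPM in 1 group, as were the nearest tested gene on each side and, for 3 of the 9, the 3 genes most like them. Abcc8, Kcnj11, Nalcn, Mcoln1, Kcnmb2 and Cacna2d1 were named outside that rule, after their values were seen. Some genes that the rule names are not reported here. Replicates are separate mice by the series design, and no 2 libraries of a group agreed within sampling noise (chi-square per degree of freedom of at least 4.84).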

Additional observations from a re-analysis of the deposited data

How the results depend on the processing

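The averaged strain calls of the 7 channel genes held direction and call in all 22 alternatives, except Cacna1c once the acinar score was in the model (0.42, adjusted p = 0.0618) and Cacna1h after thinning (0.66, adjusted p = 0.0598). The number of channel genes called was 6 to 7 for the averaged difference (7 as reported) and 7 in each fit with 1 library left out. It was 7 for NOD_insHEL against B10_insHEL and 4 to 7 with 1 library left out, the lowest without NOD_insHEL replicate 2. It was 5 with only the groups compared (Cacna1h, 1.04, adjusted p = 0.0503, and Kcnma1, -0.46, adjusted p = 0.112, lost), and 6 after thinning (Cacna1h lost, 0.72, adjusted p = 0.280). It was also 6 with the stricter filter, the acinar score or B10_insHEL replicate 2 and NOD_insHEL replicate 3 left out, each losing Kcnma1. For NOD against B10 it was 6, 5 to 6 with 1 library left out, and 3 once the acinar score was in the model. It also fell, by the loss of Trpm4, with DESeq2, RLE scaling, no low-count filter, the replicate block, islet number and thinning. For insHEL in B10 it was 2, 1 to 3 with 1 library left out, 1 once the acinar score was in the model (Trpm5, newly called, with neither Cacna1a nor Cacna1c passing) and 1 after thinning (Cacna1a, with Cacna1c lost, -0.41, adjusted p = 0.176). For insHEL in NOD it was 1, 0 to 1 with 1 library left out, and 0 with RLE scaling, without the low-count filter, with only the groups compared, with the replicate block, once the acinar score was in the model and after thinning. The interaction gave 0 throughout. The cause of these changes was not tested.

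No pairing of the mice by the numbers in the titles was seen: same-numbered libraries of different groups correlated by -0.0950 to 0.0803 in their deviations from the group means, and 4 of 12 correlated best with their own number. With the replicate block the averaged count stayed 7, NOD_insHEL against B10_insHEL 7, NOD against B10 5 (Trpm4, 0.46, adjusted p = 0.0618), insHEL in NOD 0 (Trpm4, -0.62, adjusted p = 0.0684) and insHEL in B10 2.

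Sign changes occurred only in differences that had not passed in the reported fit. For Cacna1d they were 0.13 (averaged) and 0.18 (insHEL in B10) with the acinar score, 0.00167 (averaged) after thinning, and in NOD against B10 -0.00754 without the filter and -0.00753 with the islet number. For Kcnk16 with insHEL in B10 they were -0.00969 and -0.0102 without and with a stricter filter, -0.0344 with the islet number, -0.0901 with the acinar score and -0.00367 without insulin in the totals, and the Kcnk16 interaction was -0.00916 without B10_insHEL replicate 2 and NOD_insHEL replicate 3. Scn9a with insHEL in B10 was 0.00862 with the islet number and 0.15 with the acinar score, and Kcnma1 0.22 with the acinar score. With 1 library left out, log2 differences in NOD against B10 ranged from -0.0311 to 0.15 for Cacna1c and -0.0402 to 0.0746 for Cacna1d, and the averaged one from -0.0973 to 0.00810 for Cacna1d. With insHEL in B10 they ranged from -0.0858 to 0.0884 for Kcnk16, -0.17 to 0.0393 for Cacna1d and -0.14 to 0.0526 for Kcnma1, with insHEL in NOD from -0.0819 to 0.11 for Kcnk16, and in its interaction from -0.0927 to 0.12. Over all genes, counts that moved by over 1.5 times, other than with 1 library left out, were for the averaged difference (5107) 2218 with the acinar score and 3190 after thinning, and for NOD_insHEL against B10_insHEL (1850) 1197 with only the groups compared and 1159 after thinning. For NOD against B10 (4353) they were 2688 with the islet number, 1220 with the acinar score and 2476 after thinning. For insHEL in NOD (1084) they were 400 after thinning and 1964 without B10_insHEL replicate 2 and NOD_insHEL replicate 3. For insHEL in B10 (1052) they were 646 with only the groups compared, 578 with the islet number, 250 with the acinar score, 603 after thinning and 1754 without those 2 libraries. The interaction (9) gave 83 with DESeq2, 161 without the filter, 4 with the islet number, 54 with the acinar score, 17 after thinning and 283 without those 2 libraries. With 1 library left out, insHEL in NOD gave 107 to 1522, insHEL in B10 428 to 1566, NOD against B10 2868 to 4863 and the interaction 2 to 162.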

Other observations

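Other channel genes also differed with the transgene. With insHEL in B10 islets 3 of 80 other channel genes tested were higher and 9 lower, and in NOD islets 1 was higher and 3 lower, beside 6.85% and 7.06% of all tested genes. The genes named here were picked out after their values were seen. Cacna1b, the N-type calcium channel pore, was lower with insHEL in both strains, at 12.6 ± 1.53 CPM in NOD_insHEL and 20.0 ± 0.588 in NOD (-0.71, SE 0.20, adjusted p = 0.0365), and at 11.4 ± 3.53 CPM in B10_insHEL and 18.2 ± 1.68 in B10 (-0.68, SE 0.18, adjusted p = 0.0313). Trpm6, an epithelial magnesium channel, had 0 to 1 read a library in B10_insHEL and 8 to 12 in B10 (adjusted p = 0.0282). The lysosomal channel gene Mcoln3 was lower with insHEL in B10, with 1.76 ± 0.773 CPM in B10_insHEL and 10.5 ± 1.38 in B10 (-2.59, SE 0.30, adjusted p = 4.73e-05), while in NOD it did not pass (-0.78, SE 0.34, adjusted p = 0.172) and the interaction did not pass either (1.81, SE 0.46, adjusted p = 0.163).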
